A study of Mus musculus with 2 samples.

Results

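Cells of the early proximal tubule (PT), segments S1 and S2, were taken from 2 single-cell RNA sequencing (scRNA-seq) libraries of MRL-*lpr* kidney. A barcode was a member when it had at least 200 genes, at least 5000 unique molecular identifiers (UMIs) and at most 20% mitochondrial UMIs, at least 1 UMI in 3 or more of the 5 PT genes *Lrp2*, *Slc34a1*, *Cubn*, *Slc22a6* and *Slc27a2*, and at least 3 UMIs of *Slc5a2* and *Slc5a12* together, with more UMIs of these genes than of the late PT genes *Slc7a13*, *Slc22a30* and *Atp11a*. It had no UMI of *Ptprc*, *Vcam1* or *Havcr1* and a UMI in fewer than 2 of the cell cycle genes *Mki67*, *Top2a*, *Birc5* and *Cdk1*. The rule found 3423 members among 27698 barcodes, of which 14482 passed the filters on genes, UMIs and mitochondrial share. The young library held 2274 members (29.4% of 7735 barcodes that passed, exact Clopper-Pearson 95% interval 28.4–30.4%), and the old library held 1149 (17.0% of 6747, 16.1–17.9%).

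Both groups carried the *Fas* lpr mutation on the MRL background, and the labels give their age only as young or old. The methods describe young mice as controls or mildly diseased and old mice as the severely diseased group of this spontaneous lupus model, and no MRL-MpJ background controls are among these libraries. Each library was made from pooled kidneys, and cells were enriched on a density gradient and then with magnets for innate lymphoid cells (ILCs) before live cells were sorted, so a share of a library is not a frequency in the kidney. How far mice of one age vary was not measured, since each age has 1 library. No test was possible, and all differences below are between these 2 libraries. The methods state that female mice were used unless specified otherwise, but both libraries held 2 kinds of members: cells without *Xist* but with a UMI of *Uty*, *Kdm5d*, *Ddx3y* or *Eif2s3y*, which lie on the Y chromosome, made up 58.1% of young and 49.3% of old members, and cells with *Xist* and none of these genes made up 17.2% and 23.2%. The results were therefore also computed within each kind.

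Members had a median of 16592 UMIs and 4083 genes in the young and 16240 UMIs and 4109 genes in the old library, with 41604708 and 20977491 UMIs in all. The median mitochondrial share was 6.89% and 6.41%. Of 41 barcode sequences that occurred in both libraries, 7 were members in the young and 3 in the old library, and 1 was a member in both. Levels are in CPM: a gene's UMIs over all members of a library, scaled to the same total of counts in each library, with an exact Poisson 95% interval, and old cells are compared with young cells by the log2 ratio of CPM, followed by its exact binomial 95% interval. Intervals cover counting error only. A gene was counted as higher or lower when its CPM differed by at least 1.5-fold, and shares of cells with a UMI were computed after every cell was thinned to 5000 UMIs.

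The early PT receives the glomerular filtrate. S1 and S2 cells take back glucose through the low-affinity cotransporter SGLT2 (*Slc5a2*), lactate through *Slc5a12*, phosphate through *Slc34a1* and neutral amino acids through *Slc6a19*, engulf filtered protein through megalin and cubilin (*Lrp2*, *Cubn*), and make glucose and activate vitamin D. PT cells also respond to interferons. Interferon gamma, made by T and natural killer cells, acts through IRF1 and other factors to raise the proteins that cut, carry and display peptides on major histocompatibility complex (MHC) class I, and through CIITA to raise MHC class II, which most epithelial cells hold at a low level. Type I interferons act through STAT2 and IRF9 on antiviral genes such as *Isg15*.

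The genes of the selection rule are no finding, but the marker that the rule did not use fitted the label. *Slc6a19*, encoding the neutral amino acid transporter, stood at 305 CPM (299.6–310.2) in young cells and 311 CPM (303–318) in old cells, against 64.8 and 50.8 CPM in late PT cells chosen by the reverse rule and 1.20 and 3.44 CPM in T cells. The 4 early markers together summed to 6174 CPM in young and 4397 CPM in old members, and the 8 late PT markers to 488 and 532 CPM. In late PT cells the same sums were 3814 and 2833 CPM for the early and 3497 and 2577 CPM for the late markers. These sums describe the rule, since *Slc5a2*, *Slc5a12* and *Slc34a1* and the late *Slc7a13*, *Slc22a30* and *Atp11a* are genes of it. Both *Slc5a2* and *Slc5a12* were detected in 92.4% of young and 90.3% of old members. Cells at the edge of the rule, with exactly 3 UMIs of these genes, numbered 61 and 67 and had 2815 and 2181 CPM of *Slc34a1*, and those just outside with 2 UMIs numbered 68 and 42 and had 3247 and 2245 CPM.

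Markers of other cell types were low in the members but were not equal between the libraries. The 4 T-cell markers summed to 2.50 CPM in young and 12.1 CPM in old members, the 4 B and plasma cell markers to 5.14 and 9.77, the 4 macrophage and monocyte markers to 4.83 and 8.58, the 2 neutrophil markers to 2.79 and 6.05 and the 3 ILC2 markers to 7.38 and 3.77 CPM, with the ILC2 gene *Il1rl1* at 0 in old members. By comparison, the T-cell markers summed to 811 and 2765 CPM in leukocytes. The 5 endothelial markers summed to 14.0 and 0.429 CPM, with 3 of them at 0 in old members, the 4 erythroid markers to 160 and 56.1 CPM, and the 7 markers of loop, distal tubule and collecting duct to 10.1 and 53.6 CPM, of which *Umod* made up 4.64 and 31.0. The 3 podocyte markers summed to 1.01 and 0.667 CPM and the 4 stromal markers to 0.192 and 0.0953 CPM. Members without a UMI of any leukocyte marker numbered 1726 (75.9%) and 638 (55.5%). Counts of genes past 1.5-fold over all members, ratios of 152 genes and list medians were repeated in these cells. Shares of cells with a UMI, counts per cell and values by sex of the cell were not. PT transcripts were in turn found in droplets of other cells, and *Slc34a1* was detected in 37.1% of young and 18.3% of old T cells after thinning. T cells had to have fewer than 3 of the 5 PT genes, of which *Slc34a1* is 1, so their choice limits this share.

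Genes of antigen presentation and the interferon response were among those with the highest ratios of old over young members. Over 10081 genes with at least 200 UMIs in the members, the median log2 ratio was 0.02 and 9371 genes (93.0%) lay within 1.5-fold. Higher in old cells were 422 genes (4.19%) and lower were 288 (2.86%). In cells with Y-linked UMIs alone, 335 were higher and 374 lower, and in cells with *Xist* alone 400 and 192. In the same direction in both kinds of cells, 266 genes (2.64%) were higher and 145 (1.44%) were lower. Among listed genes of MHC class I and the interferon gamma response, 23 of 24 with at least 200 UMIs were higher and 0 were lower, with a median log2 ratio of 3.94. The 10 such genes of the type I interferon response (median 4.26) and the 7 of MHC class II (median 5.99) were also higher. A gene that reached 200 UMIs only through old cells had to differ, so these counts are descriptions. Of the class I, type I and class II genes that had at least 200 UMIs in the young library alone, 11 of 12, 3 of 3 and 2 of 2 were higher. The 3 lists were known to differ in these libraries when they were chosen.

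**Figure D1:**
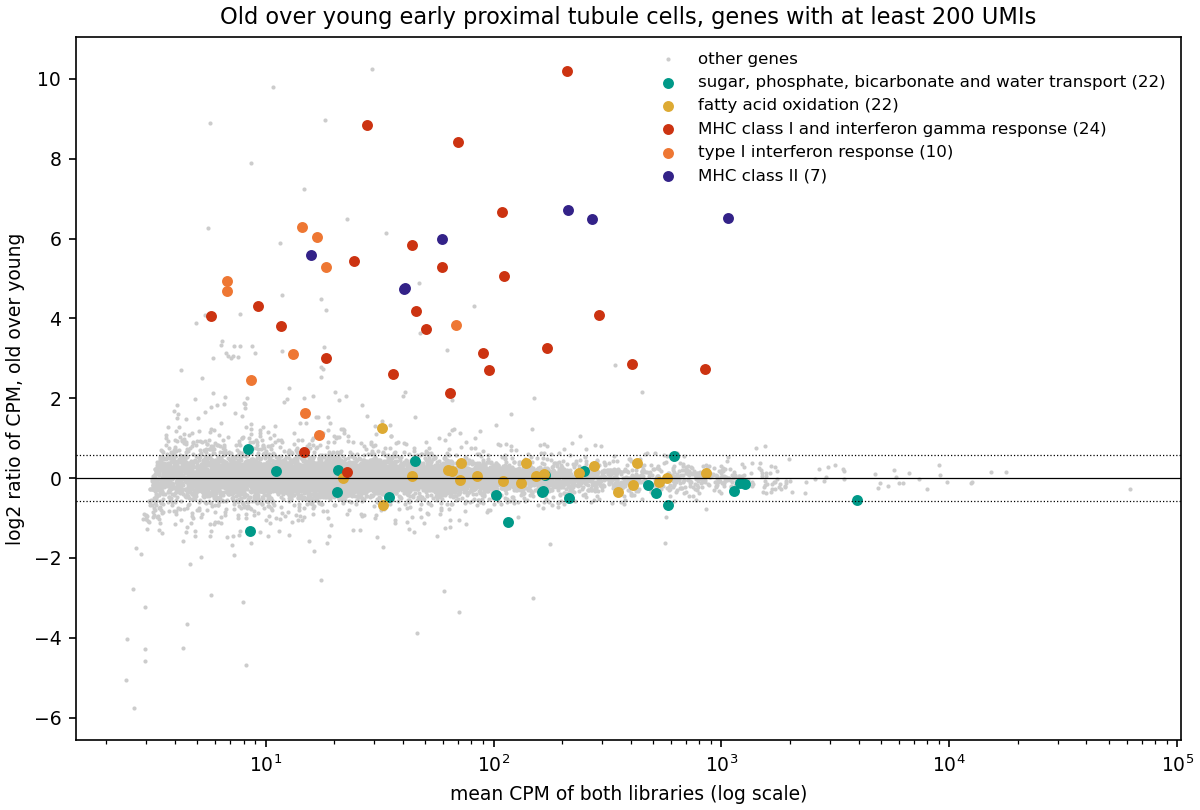
Log2 ratio of CPM in old over young early PT cells (vertical axis) against the mean CPM of both libraries (horizontal axis, log scale) for 10081 genes with at least 200 UMIs. Dotted lines mark 1.5-fold. The MHC and interferon genes stand above the upper line, except *Ifngr1* at 0.16, and the transport and fatty acid oxidation genes mostly lie between the lines, with *Slc26a6*, *Slc34a3*, *Slc5a2*, *Slc5a1*, *Pdk4* and *Cyp4a10* outside them.

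MHC class II genes stood at a low level in young and a high level in old members. *Cd74*, the invariant chain that guides class II molecules through the cell, stood at 23.3 CPM (21.8–24.8) in young cells and 2109 CPM (2089.7–2129) in old cells (log2 ratio 6.50, 6.41 to 6.60). *H2-Aa* (ENSMUSG00000036594, chromosome 17, 34282744 to 34287823), a class II alpha chain, stood at 4.04 CPM (3.45–4.70) in young cells and 422 CPM (414–431) in old cells (6.71, 6.49 to 6.94), and *H2-Ab1*, its beta chain, at 5.94 CPM (5.22–6.73) in young cells and 537 CPM (528–547) in old cells (6.50, 6.32 to 6.69). The peptide-loading chains had the same direction, *H2-DMa* with 2.93 against 78.2 CPM and *H2-DMb1* with 2.91 against 78.9 CPM. *Ciita*, the transactivator that switches on class II genes, was counted with 27 UMIs in young and 649 UMIs in old cells (log2 ratio 5.58, 5.02 to 6.19). Class II molecules are most familiar from B cells, macrophages and dendritic cells. The rule left out barcodes with a UMI of *Ptprc*, and no marker of dendritic cells was counted. In old members, 44248 UMIs of *Cd74* stood beside 19 of *Cd79a* and 138 of *Lyz2*, which is 2329 and 321 UMIs of *Cd74* per UMI of these markers, against 21.4 and 0.770 in old leukocytes. Young members had 12.4 UMIs of *Cd74* per UMI of *Cd79a* and 9.88 per UMI of *Lyz2*, against 39.6 and 1.29 in young leukocytes.

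MHC class I and its peptide supply were higher along the whole path. *B2m* (ENSMUSG00000060802, chromosome 2, 122147686 to 122153083), the light chain of every class I molecule, stood at 221 CPM (216–225) in young cells and 1471 CPM (1454–1487) in old cells (log2 ratio 2.74, 2.70 to 2.77). The heavy chain gene *H2-K1* stood at 32.5 CPM (30.8–34.3) in young cells and 549 CPM (539–559) in old cells (4.08, 3.998 to 4.16), and *H2-D1* and *H2-T23* had ratios of 2.85 and 2.72. The H2 genes are similar in sequence, and their reads may be split between them. Among subunits of the immunoproteasome, which cuts proteins into peptides for display, *Psmb8* stood at 2.12 CPM (1.70–2.61) in young cells and 215 CPM (209–222) in old cells (6.67, 6.37 to 6.99), *Psmb9* had a ratio of 5.84 and *Psmb10* one of 3.73. The peptide pump genes *Tap1* and *Tap2* stood at 1.56 against 21.8 CPM and 10.2 against 62.3 CPM, and *Tapbp*, which holds class I near the pump, at 23.8 against 105 CPM.

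The interferon gamma receptors differed less than the genes downstream of them. *Ifngr1*, the ligand-binding chain, stood at 21.5 CPM (20.1–22.97) in young cells and 24.03 CPM (21.97–26.2) in old cells (log2 ratio 0.16, -0.001 to 0.32) and was the one class I and interferon gamma gene within 1.5-fold, while *Ifngr2*, the second chain, had a ratio of 0.66 (0.46 to 0.86). The transcription factor gene *Irf1* stood at 2.96 against 116 CPM, with a ratio of 5.29 (5.03 to 5.57). Genes of guanylate-binding proteins and immunity-related GTPases, which act on vacuoles of intracellular microbes, gave some of the largest ratios. *Iigp1* stood at 0.361 CPM (0.202–0.595) in young cells and 420.5 CPM (412–429) in old cells (10.19, 9.46 to 11.03), *Gbp2* at 0.409 CPM (0.238–0.654) in young cells and 139.96 CPM (135–145) in old cells (8.42, 7.74 to 9.20), *Igtp* at 6.42 CPM (5.67–7.24) in young cells and 215 CPM (209–221) in old cells (5.07, 4.89 to 5.25) and *Irgm1* at 32.7 CPM (31.02–34.5) in young cells and 311 CPM (304–319) in old cells (3.25, 3.16 to 3.33). *Gbp6*, with 5 UMIs in young cells, had a ratio of 8.85 (7.62 to 10.48). *Gm4841* and *F830016B08Rik*, close relatives of *Iigp1* whose reads may be shared with it, had 1 and 0 UMIs in young and 450 and 764 UMIs in old cells. The ratio of *F830016B08Rik* was at least 8.98 on the log2 scale, taking 3 UMIs for the young library. *Ubd*, encoding the ubiquitin-like modifier FAT10, had 2 UMIs in young and 1230 UMIs in old cells (10.25, 8.40 to 13.30).

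The upstream sequences of members of these lists were searched for 2 motifs, since the genes were higher together: the interferon-stimulated response element (ISRE), with the letters GAAANNGAAA or TTTCNNTTTC on the other strand, and the gamma-activated site (GAS), TTCNNNGAA on both strands. RefSeq sequences of the 250 bases before the start were at hand for 27025 genes on GRCm38.p6, and of these 936 (3.46%) held an ISRE and 2197 (8.13%) a GAS. Among class I and interferon gamma genes, 23 of 28 had a sequence and 9 of these (39.1%) held an ISRE, and among type I genes 7 of 12 with a sequence did. A GAS was held by 4 of the 23 (17.4%) and 2 of the 12 (16.7%). Of 4 class II genes with a sequence, 0 held either motif, and of 18 fatty acid oxidation genes 0 held an ISRE and 3 (16.7%) a GAS. A match is a description of the letters and not evidence of binding, and the absence of one says only that the letters are not in this window. Windows with a match of each kind, and 1 without, are shown for genes described here. Matches are in capitals and the last base lies just before the start. *Gbp2* (chr3:142620413-142620662, plus strand) and *B2m* (chr2:122147437-122147686, plus strand) each held 1 ISRE, *Igtp* (chr11:58199306-58199555, plus strand) held a GAS followed by an ISRE, *Irgm1* (chr11:48871421-48871670, minus strand) held 2 overlapping ISREs and *Isg15* (chr4:156200819-156201068, minus strand) held 3. *Irf1* (chr11:53769764-53770013, plus strand) and *Psmb8* (chr17:34197945-34198194, plus strand) held a GAS, and *H2-Aa* (chr17:34287824-34288073, minus strand) held neither. A second window of *Irf1*, both windows of *H2-K1* and that of *Ubd* held neither motif as well.
Gbp2: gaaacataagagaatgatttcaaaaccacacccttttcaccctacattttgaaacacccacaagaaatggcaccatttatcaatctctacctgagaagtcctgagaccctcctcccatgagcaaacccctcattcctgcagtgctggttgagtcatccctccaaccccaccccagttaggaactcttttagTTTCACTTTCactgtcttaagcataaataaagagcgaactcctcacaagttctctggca
B2m: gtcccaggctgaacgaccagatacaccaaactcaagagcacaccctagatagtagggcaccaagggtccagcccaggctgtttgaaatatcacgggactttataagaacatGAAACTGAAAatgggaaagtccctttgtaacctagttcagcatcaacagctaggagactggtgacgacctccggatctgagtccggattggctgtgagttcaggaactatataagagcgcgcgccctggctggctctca
Igtp: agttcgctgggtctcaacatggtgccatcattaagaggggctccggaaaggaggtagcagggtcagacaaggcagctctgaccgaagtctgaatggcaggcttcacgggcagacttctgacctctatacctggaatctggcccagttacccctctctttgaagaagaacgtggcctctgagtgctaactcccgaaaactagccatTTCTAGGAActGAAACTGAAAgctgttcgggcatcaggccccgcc
Irgm1: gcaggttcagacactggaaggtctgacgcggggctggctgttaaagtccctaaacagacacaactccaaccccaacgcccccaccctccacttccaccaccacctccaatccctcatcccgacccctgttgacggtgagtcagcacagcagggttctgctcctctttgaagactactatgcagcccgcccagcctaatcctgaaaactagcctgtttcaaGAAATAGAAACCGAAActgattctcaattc
Isg15: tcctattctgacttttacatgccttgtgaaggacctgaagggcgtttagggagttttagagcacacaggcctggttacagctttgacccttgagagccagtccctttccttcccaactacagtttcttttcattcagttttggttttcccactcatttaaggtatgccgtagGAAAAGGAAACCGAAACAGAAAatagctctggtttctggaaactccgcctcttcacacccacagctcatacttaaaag
Irf1: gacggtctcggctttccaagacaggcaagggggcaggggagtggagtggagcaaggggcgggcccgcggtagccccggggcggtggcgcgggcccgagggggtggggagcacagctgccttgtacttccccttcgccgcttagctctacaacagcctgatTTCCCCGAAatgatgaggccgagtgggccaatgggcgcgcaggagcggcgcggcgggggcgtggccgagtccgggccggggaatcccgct
Psmb8: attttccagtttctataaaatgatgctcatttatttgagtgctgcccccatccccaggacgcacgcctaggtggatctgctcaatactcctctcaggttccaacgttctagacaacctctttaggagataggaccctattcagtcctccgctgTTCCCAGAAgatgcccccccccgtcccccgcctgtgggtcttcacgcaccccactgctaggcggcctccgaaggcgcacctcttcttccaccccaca
H2-Aa: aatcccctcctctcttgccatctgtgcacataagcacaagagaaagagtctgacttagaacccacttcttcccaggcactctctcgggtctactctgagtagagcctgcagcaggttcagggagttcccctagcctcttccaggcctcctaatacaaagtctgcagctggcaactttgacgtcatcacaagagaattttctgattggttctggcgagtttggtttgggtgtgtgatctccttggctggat

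Genes more typical of type I interferon were higher in old cells at a lower level. *Isg15*, encoding a ubiquitin-like modifier, stood at 0.913 CPM (0.646–1.25) in young cells and 35.9 CPM (33.4–38.6) in old cells (log2 ratio 5.30, 4.83 to 5.81), and *Ifit1* and *Ifit3*, which encode sensors of foreign RNA, stood at 0.361 against 28.4 CPM and 0.505 against 32.99 CPM. *Bst2*, encoding the tether that holds budding virus at the membrane, stood at 8.97 CPM (8.08–9.92) in young cells and 128 CPM (124–133) in old cells (3.84, 3.68 to 4.001). *Stat2* and *Irf9*, whose products act in one complex, gave the smallest ratios of the list that passed the count minimum, 1.07 (0.88 to 1.26) and 1.62 (1.41 to 1.84). The antiviral genes *Mx1* and *Oas1a* were hardly detected, with 2 UMIs each in young and 4 and 9 UMIs in old cells. *Cxcl10*, encoding a chemokine that draws T cells, stood at 4.76 CPM (4.12–5.47) in young cells and 86.5 CPM (82.6–90.6) in old cells (4.18, 3.97 to 4.40), while its relative *Cxcl9* had 0 and 13 UMIs. *Cd274*, encoding the T-cell inhibitory ligand PD-L1, had 27 and 228 UMIs (4.07, 3.49 to 4.70).

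*Cd74* and *H2-Aa* were found in most old members. After thinning, *Cd74* (ENSMUSG00000024610) was detected in 4.97% (4.11–5.94%) of young and 87.7% (85.7–89.6%) of old members, with a median of 0 and 8 UMIs and a maximum of 33 and 57. T cells, which should lack the gene, had a share of 8.10% in the young and 21.8% in the old library. Their median depths were 6549.5 and 6878 UMIs before thinning. They were chosen without a UMI of *Cd79a*, *Lyz2* or *C1qa*, so their share may miss free RNA of B cells and macrophages. What free RNA adds to the shares of members was not tested. *H2-Aa* was detected in 1.54% (1.07–2.13%) of young and 66.1% (63.2–68.8%) of old members, against 3.81% and 5.003% of T cells. *B2m*, which nearly all T cells express, was detected in 60.7% (58.7–62.7%) of young and 95.3% (93.9–96.5%) of old members, and its median was 1 and 6 UMIs. *Psmb8* was detected in 0.923% (0.573–1.41%) and 46.3% (43.4–49.2%) of members.

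**Figure D2:**
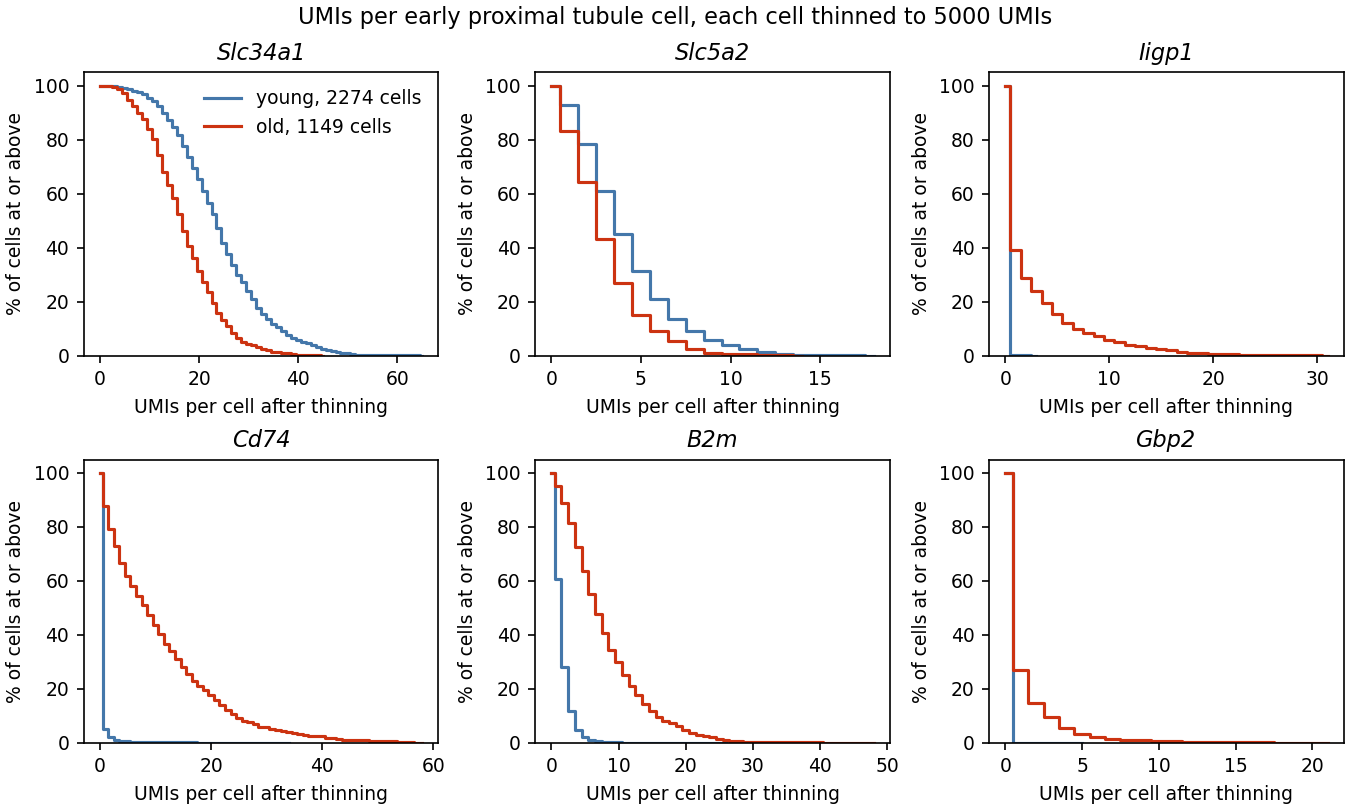
Percent of early PT cells (vertical axis) with at least the number of UMIs on the horizontal axis, each cell thinned to 5000 UMIs, for 2274 young and 1149 old cells. The old curves of *Cd74* and *B2m* lie far to the right of the young curves, those of *Iigp1* and *Gbp2* start at 38.99% and 27.2% of cells at 1 UMI, and those of the selection genes *Slc34a1* and *Slc5a2* lie to the left.

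Summed over the 35 genes of the class I, interferon gamma and class II lists, the thinned count per cell had a median of 2 UMIs (range 0–89) in young and 35 UMIs (0–220) in old members. The 95th percentile of young cells was 7 UMIs and 89.0% of old cells lay above it, while 9.40% lay above the highest young cell. The libraries overlapped, and 25 old cells lay at or below the young median. *Iigp1* was found in fewer old cells than *Cd74*, *H2-Aa* and *H2-Ab1*. It was detected in 0.0880% (0.0107–0.317%) of young and 38.99% (36.2–41.9%) of old members, against 2.86% and 6.19% of T cells, with a 75th percentile of 2 and a highest count of 30 UMIs in old cells. *Gbp2* was detected in 0.0880% (0.0107–0.317%) and 27.2% (24.6–29.8%) of members, and *Cxcl10* in 1.01% (0.642–1.51%) and 7.75% (6.27–9.45%).

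Old members were set side by side by their thinned *Iigp1* count, with CPM taken over the thinned counts. Cells with 0 UMIs numbered 701 (61.0%), those with 1 to 2 numbered 172 (15.0%) and those with 3 or more 276 (24.0%), with like median depths of 15977, 16692 and 16628 UMIs. Across these groups *Gbp2* stood at 51.9, 130.2 and 360.1 CPM, *Igtp* at 67.3, 184 and 546 CPM and *Ifit1* at 7.70, 19.8 and 74.6 CPM. *Cd74* was already at 1518 CPM in cells with 0 *Iigp1* UMIs after thinning. It stood at 2806 and 3104 CPM in the others, and *C4b* stood at 112, 174 and 238 CPM. Before thinning, 49.9% of old members had an *Iigp1* UMI, so some cells counted with 0 did hold the transcript. Among genes of the rule, *Slc5a2* stood at 502, 514 and 502 CPM and *Slc34a1* at 3351, 3450.0 and 3055 CPM. *Slc5a12* fell across the groups, at 498, 440 and 427 CPM, and so did *Lrp2*, at 1099, 1059 and 1030 CPM. Cells with Y-linked UMIs made up 49.2%, 51.7% and 47.8% of the groups, and *Cd3e* stood at 3.42, 2.33 and 0.725 CPM. The groups were defined by a gene of the same response, and the values are a description.

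Late PT cells, PT cells with a UMI of *Vcam1* or *Havcr1*, leukocytes and the T cells among them served as comparisons. Old over young, the median log2 ratio of the class I and interferon gamma list was 3.94 in early PT cells, 3.91 in late PT cells (2052 young and 1140 old), 4.69 in injury-marked PT cells (276 and 285) and 0.90 in leukocytes (1460 and 2931). For class II the medians were 5.99, 6.36, 7.03 and -0.71, and for type I genes 4.26, 3.89, 5.20 and 0.47. The leukocytes are a mix that differed between the libraries, with 210 T cells among 1460 young and 1679 among 2931 old leukocytes. What this mix adds to the leukocyte medians was not tested. *Cd74* stood at 15.6 and 2239 CPM in late PT cells, 22.8 and 3885 CPM in injury-marked cells and 148 and 108 CPM in T cells. The highest young T cell held 91 of the 247 *Cd74* UMIs of young T cells. The share of T cells with the gene was higher in the old library (8.10% and 21.8%). Early and late cells of the old library were close for *Cd74* (log2 ratio early over late -0.09), *H2-Aa* (0.08) and *Psmb8* (0.03). *Ifit1* and *Ifit3* were higher in early than in late old cells, by 2.02 and 2.69, and so were *Irf1* by 1.02 and *Gbp6* by 1.16 on the log2 scale.

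**Figure D3:**
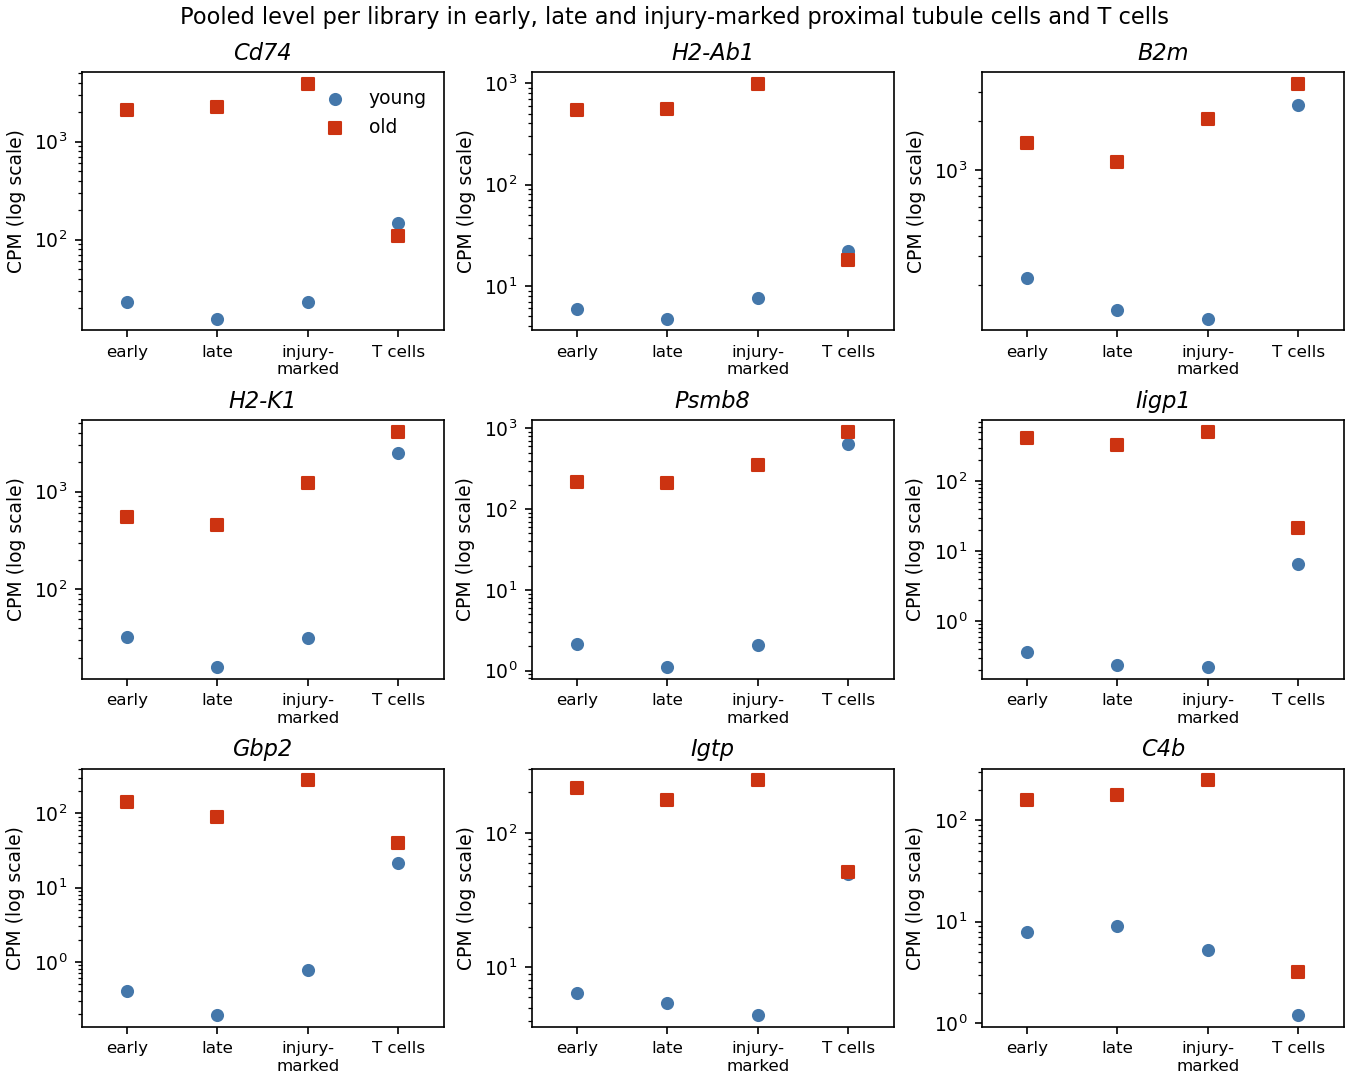
Pooled CPM (log scale) of 9 genes in early, late and injury-marked PT cells and in T cells of the young (circles) and old (squares) library, 1 value per library. The old squares stand above the young circles in the 3 PT classes for all 9 genes. In T cells the pooled CPM of *Cd74* (148 and 108) and *H2-Ab1* (22.2 and 18.004) is lower in the old library. The highest young T cell held 91 UMIs of *Cd74* and 17 for *H2-Ab1*. Shares of T cells with a UMI after thinning were higher in the old library, 8.10% and 21.8% for *Cd74* and 2.86% and 5.72% for *H2-Ab1*.

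The MHC and interferon genes had the same direction in both kinds of cells, and the type I genes differed in size. In cells with Y-linked UMIs (1321 young and 566 old) and cells with *Xist* (391 and 267), the median log2 ratio was 4.06 and 3.80 for the class I and interferon gamma list, 6.23 and 5.21 for class II and 5.04 and 2.41 for type I genes. All 23, 7 and 10 genes counted as higher passed 1.5-fold in both kinds. *Isg15* stood at 0.411 and 40.9 CPM in cells with Y-linked UMIs and at 2.18 and 11.2 CPM in cells with *Xist*, and *Ifit1* at 0.224 and 35.6 against 0.683 and 11.6 CPM. The young levels of both genes rest on few UMIs. Over all members, the ratio of *Isg15* moved from 5.30 to 6.21 when called doublets were left out. *Cd74* did not part the kinds, with 2065 and 2049 CPM in old cells. In members without a leukocyte marker UMI, the 3 list medians were 3.82, 6.44 and 4.04, close to those over all members.

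**Figure D4:**
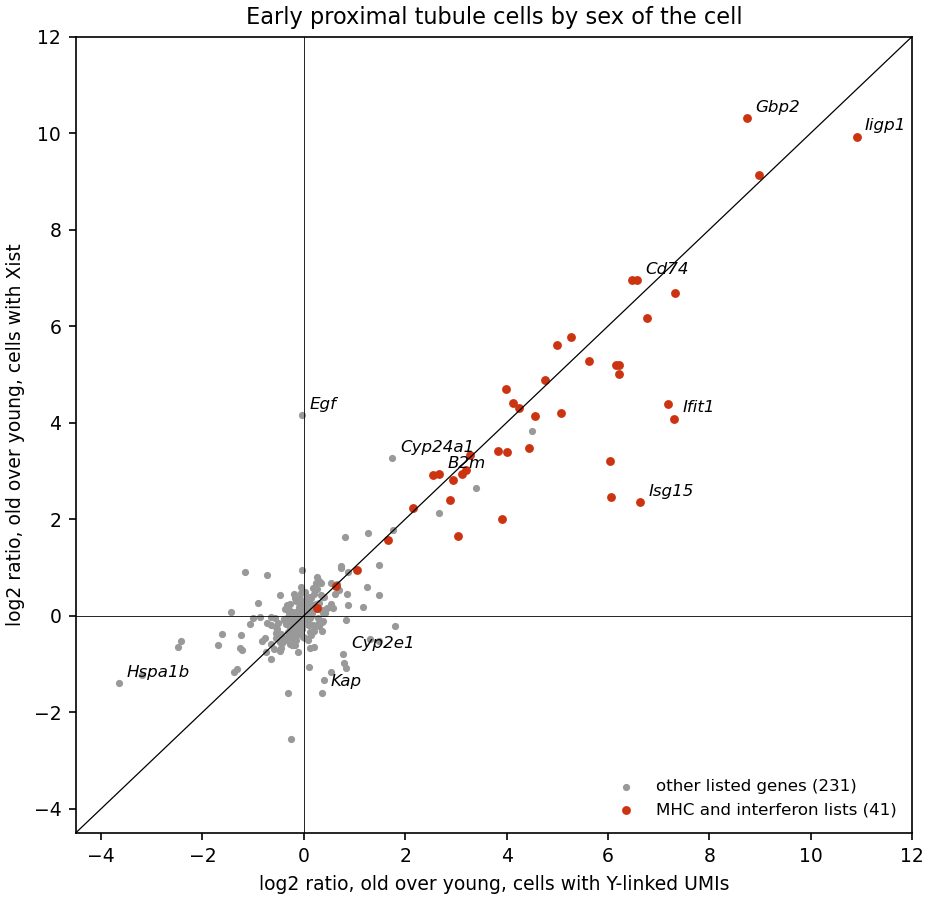
Log2 ratio of CPM, old over young, in early PT cells with Y-linked UMIs (horizontal axis) and with *Xist* (vertical axis) for the listed genes with at least 200 UMIs, a group with no UMI being set at 3. The MHC and interferon genes (red) lie above 0 on both axes, the type I genes *Isg15* and *Ifit1* lie below the diagonal, and *Kap*, *Cyp2e1* and *Egf* differ in sign between the axes.

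Complement and chemokine genes differed one by one. *C4b*, encoding complement component C4, stood at 7.98 CPM (7.14–8.89) in young cells and 157 CPM (152–162) in old cells (log2 ratio 4.30, 4.14 to 4.47) and was detected in 3.52% (2.80–4.36%) of young and 41.7% (38.8–44.6%) of old members. *C3*, the central component, had 108 and 186 UMIs (1.77, 1.42 to 2.13), and *Cfb*, which encodes factor B of the alternative pathway, stood at 21.5 against 37.4 CPM with a ratio of 0.80 over all members and 0.45 in cells with *Xist*. Of 10 complement genes, 5 had 200 UMIs, and 3 of these were higher and 0 lower. Among all 10081 genes with 200 UMIs, 4.19% were higher and 2.86% lower. *Cxcl1*, encoding a neutrophil chemokine, stood at 5.14 CPM (4.48–5.88) in young cells and 29.8 CPM (27.5–32.2) in old cells (2.53, 2.31 to 2.76), and *Cxcl16*, encoding a membrane-bound chemokine for T cells, at 86.7 against 152 CPM (0.81, 0.74 to 0.88). *Il34*, whose product is a ligand of the macrophage receptor CSF1R, stood at 3.37 CPM (2.83–3.97) in young cells and 32.7 CPM (30.3–35.3) in old cells (3.28, 3.02 to 3.56), and its level differed between the kinds of cells. In cells with Y-linked UMIs it stood at 4.45 and 46.7 CPM against 0.410 and 2.58 CPM in cells with *Xist*. *Icam1*, encoding a ligand of leukocyte integrins, had a ratio of 1.05 (0.89 to 1.21). The cytokine genes *Il33*, *Il25* and *Tslp*, which act on ILC2s, had 25, 0 and 1 UMIs in young and 16, 0 and 2 UMIs in old cells, too few to compare at this depth. Of the 14 genes for signals to and from lymphocytes that had 200 UMIs, 5 were higher and 3 lower, with a median of 0.09. Among the lower genes were the cadherins *Cdh16* (-0.63, -0.68 to -0.59) and *Cdh2* (-0.93, -1.25 to -0.62), and *Cxcl12* (-0.81, -1.19 to -0.44). *Egf* had a ratio of 3.30 over all members and -0.05 in cells with Y-linked UMIs, beside the loop marker *Umod* at 4.64 against 31.03 CPM, whose part in it was not tested.

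Transport genes of the brush border were close between the libraries or lower in old cells. Of 22 genes for sugar, phosphate, bicarbonate and water transport, 1 was higher and 3 were lower, with a median log2 ratio of -0.32. Over all 10081 genes with at least 200 UMIs, 4.19% were higher and 2.86% lower. *Slc34a3*, encoding the phosphate cotransporter NaPi-IIc, stood at 158 CPM (154–162) in young cells and 74.03 CPM (70.4–77.8) in old cells (-1.09, -1.17 to -1.01) and was detected in 49.9% (47.8–51.9%) and 29.5% (26.9–32.2%) of cells. *Slc26a6*, encoding an exchanger of chloride with formate and oxalate, stood at 12.2 CPM (11.1–13.3) in young cells and 4.86 CPM (3.96–5.90) in old cells (-1.33, -1.65 to -1.02). The third lower gene was *Slc5a2* (-0.66, -0.70 to -0.63), a gene of the rule, and *Slc34a1*, also of the rule, had -0.54. *Slc5a1*, encoding the high-affinity glucose cotransporter SGLT1 of later segments, was higher at 6.35 against 10.4 CPM, with 1.80 in cells with Y-linked UMIs and -0.20 in cells with *Xist*. The basolateral partners lay within 1.5-fold, with *Slc2a2*, the glucose exit transporter GLUT2, at -0.31 and *Slc4a4*, the bicarbonate exit transporter, at -0.14. None of 14 amino acid transport genes passed 1.5-fold (median -0.21, range -0.58 to 0.08), which is near the share over all genes. *Slc7a8*, encoding a basolateral exchanger, lay lowest at -0.58 (-0.66 to -0.51), just inside the limit. It passed 1.5-fold in 6 of 14 alternative settings, among them cells with Y-linked UMIs (-1.07). Of 20 organic anion, cation and urate transport genes, 2 were higher and 3 lower in all members, but none was so in both kinds of cells.

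Few genes of protein uptake and energy metabolism passed 1.5-fold, near the share over all genes. Of all 10081 genes with at least 200 UMIs, 93.0% lay within 1.5-fold, so 0 in a list of this size does not set the list apart. Among 16 genes of endocytosis and the lysosome 0 passed 1.5-fold, with *Dab2*, an adaptor of megalin, at 0.37 and *Amn*, the membrane anchor of cubilin, at -0.51. Among 14 genes for gluconeogenesis, fructose and ammonia 0 passed, with *Pck1*, the gene of the committing enzyme of gluconeogenesis, at 1856 against 1448 CPM (-0.36) and *G6pc*, which releases free glucose, at 720.5 against 769 CPM (0.09). The 15 nuclear genes of the respiratory chain (median -0.18) and the 13 mitochondrially encoded genes (median -0.12) also gave 0. Of 22 fatty acid oxidation genes, *Pdk4*, whose kinase turns cells from glucose to fat, was higher at 19.1 CPM (17.8–20.4) in young cells and 45.7 CPM (42.9–48.7) in old cells (1.26, 1.12 to 1.40) and *Cyp4a10*, a fatty acid hydroxylase, was lower at 40.3 against 25.4 CPM (-0.67, -0.81 to -0.53). The 10 transcription factor genes of PT identity lay within 1.5-fold (median 0.10), among them *Hnf4a* at 0.34. Of 20 redox genes (median 0.35), *Cyp4b1* (1064 against 1779.96 CPM, 0.74) and *Mt2* (13.6 against 23.4 CPM, 0.78) were higher, the latter not in cells with Y-linked UMIs (-0.72).

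**Figure D5:**
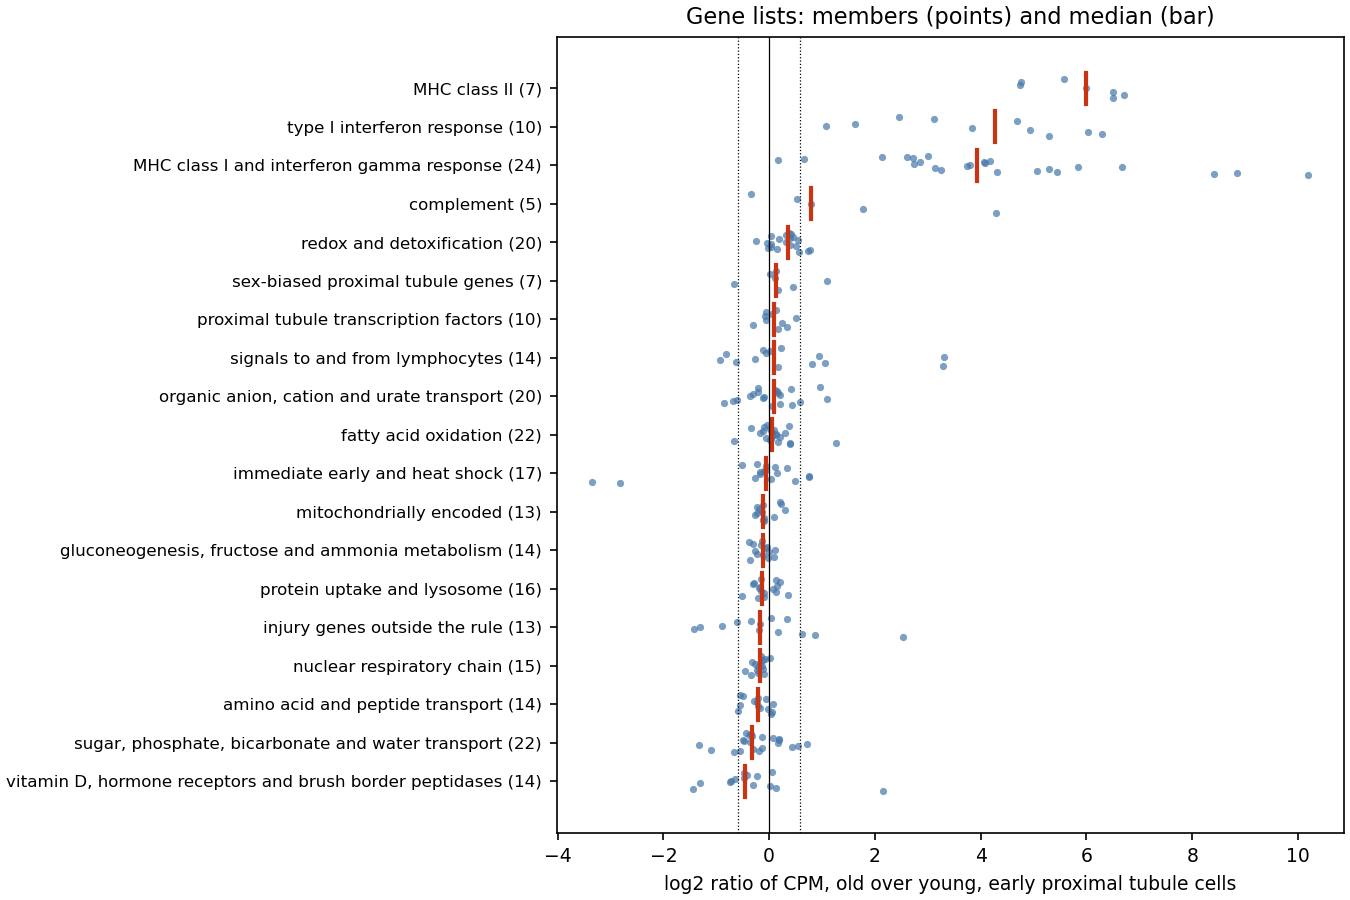
Log2 ratio of CPM, old over young, of the members with at least 200 UMIs of 19 gene lists (points) and their median (red bar), with the number of such members in brackets. Dotted lines mark 1.5-fold. The 3 MHC and interferon lists stand apart at medians of 4.26, 3.94 and 5.99, and the medians of the transport and metabolism lists lie between -0.45 and 0.35.

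Vitamin D enzymes, hormone receptors and brush border peptidases formed the list with the lowest median, -0.45, and 5 of its 14 genes were lower and 1 higher. Of all 10081 genes with at least 200 UMIs, 2.86% were lower and 4.19% higher. *Cyp24a1*, encoding the hydroxylase that breaks down active vitamin D, was higher at 14.97 CPM (13.8–16.2) in young cells and 66.6 CPM (63.1–70.2) in old cells (2.15, 2.02 to 2.29) and was detected in 4.66% (3.83–5.61%) and 15.4% (13.4–17.6%) of cells. *Cyp27b1*, encoding the hydroxylase that makes it, was lower with 346 and 64 UMIs (-1.45, -1.85 to -1.06). The receptor genes *Vdr* and *Pth1r* lay at 0.13 and 0.01. *Agt*, encoding angiotensinogen, stood at 73.4 against 43.8 CPM (-0.75, -0.85 to -0.64), *Anpep*, aminopeptidase N, at 53.2 against 32.4 CPM (-0.72, -0.84 to -0.59) and *Mme*, neprilysin, at 19.5 against 12.5 CPM (-0.64, -0.85 to -0.44). Of the 5 lower genes, 4 passed 1.5-fold in both kinds of cells, and *Agt* had -0.52 in cells with *Xist*.

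Stress and injury genes included both higher and lower members. Of 17 immediate early and heat shock genes, *Hspa1a* and *Hspa1b*, which encode the inducible chaperone HSP70 and share most of their sequence, were lower at 106 CPM (103–109) in young cells and 14.9 CPM (13.3–16.7) in old cells (-2.83, -2.996 to -2.66) and 129 CPM (125–132) in young cells and 12.7 CPM (11.2–14.3) in old cells (-3.34, -3.53 to -3.16). *Hspa1b* was detected in 25.02% (23.3–26.9%) of young and 4.61% (3.47–5.99%) of old members, while in T cells it went the other way with 37.2 and 135 CPM. In young members it stood at 171 CPM in cells with Y-linked UMIs and 24.3 CPM in cells with *Xist*. *Egr1* and *Ier3* were higher (0.74 and 0.75), and *Fos* (0.03) and *Jun* (-0.27) lay within 1.5-fold. Tissue dissociation is known to induce genes of this list, both those that differed and those that did not, and its part was not tested. Of 25 injury genes outside the rule, 13 had 200 UMIs, 3 were higher and 4 lower, beside 4.19% and 2.86% of all 10081 such genes. The higher genes were *Cxcl1*, *Gdf15*, which encodes a stress cytokine (156 against 284 CPM, log2 ratio 0.87), and *Plin2*, which encodes a coat protein of lipid droplets (111 against 171 CPM, log2 ratio 0.61). The injury marker *Lcn2* had 2 and 5 UMIs. The lower genes *S100a6*, *Krt18*, *Clu* and *Sox4* were not past 1.5-fold in both kinds of cells. For *S100a6* the ratio of -1.42 became 1.18 without each library's highest cell.

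Some abundant genes were lower in old members. They were chosen after their values were seen, as genes with at least 100 CPM in young cells and low ratios. *Car3*, encoding a carbonic anhydrase of low activity, stood at 264 CPM (259–269) in young cells and 32.8 CPM (30.4–35.3) in old cells (-3.01, -3.12 to -2.90) and was detected in 26.3% (24.5–28.2%) and 7.14% (5.72–8.78%) of cells. It stood at 348 and 46.5 CPM in cells with Y-linked UMIs and at 24.4 and 9.02 CPM in cells with *Xist*. *Fabp3*, encoding a fatty acid-binding protein, stood at 269 CPM (264–274) in young cells and 85.04 CPM (81.1–89.1) in old cells (-1.66, -1.73 to -1.59). *Dnase1*, encoding a secreted endonuclease that clears extracellular DNA, stood at 851 CPM (842–859.6) in young cells and 278 CPM (271–285) in old cells (-1.62, -1.66 to -1.58) and was detected in 76.7% (74.9–78.5%) of young and 44.9% (42.01–47.8%) of old members, against 8.57% and 1.67% of T cells. It was lower in cells with Y-linked UMIs (-1.28), in cells with *Xist* (-2.40) and in late PT cells (-1.58). *Col4a1*, a basement membrane collagen, had a ratio of -1.14 (-1.25 to -1.04) and *Npnt*, an integrin ligand of the basement membrane, one of -0.97 (-1.04 to -0.89). On the other side, chosen in the same way among genes with at least 100 CPM in old cells, *Pigr*, encoding the receptor that carries immunoglobulin A across epithelia, stood at 12.3 CPM (11.3–13.4) in young cells and 113 CPM (109–118) in old cells (3.20, 3.06 to 3.34), and the interferon-inducible genes *Ly6e* and *Ly6a* stood at 83.96 against 596 CPM and 163 against 733 CPM. *Psme1* and *Psme2*, which encode the proteasome activator PA28, had ratios of 1.60 and 1.32.

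At the lower end of the ranking, several genes are known from other cells or rested on single cells. *Plvap*, *Fabp4* and *Ly6c1*, known from endothelium, had 216, 197 and 233 UMIs in young and 2, 3 and 6 UMIs in old members, beside the endothelial markers given above, whose part was not tested. A single young cell held 91.1% of the UMIs of *Calb1*, a gene of the distal tubule, 95.3% of those of *Sprr1a* and 91.9% of those of the hemoglobin gene *Hbb-bt*. *Cox6a2* (14.3 against 1.67 CPM), *Snap91* (10.2 against 1.33 CPM) and *Speg* (4.66 against 0.286 CPM) did not rest on single young cells and were lower in both kinds of cells. So was *Ptgds*, encoding prostaglandin D synthase, at 86.2 CPM (83.4–89.1) in young cells and 5.86 CPM (4.87–6.996) in old cells. For *Ptgds*, 1 old cell held 71.5% of the UMIs of its library, and the ratio without each library's highest cell was -5.63. At the upper end, *Ighg1*, an immunoglobulin gene of plasma cells, had 0 and 362 UMIs, spread over 292 old members.

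Early and late PT cells were told apart by the rule, and the genes below only describe it. Highest in early over late cells in both libraries were *Cacna2d2*, *Ang*, *Camk1g*, *Col8a1*, *Rnase4*, *Gpat3*, *Lmod1*, *Cdh2*, *Ugt2b34* and *1810041L15Rik*. *Rnase4*, which overlaps *Ang* and can share its reads, had log2 ratios of 7.09 in the young and 5.34 in the old library, and *Cdh2*, encoding N-cadherin, 5.05 and 6.10. *Slc34a3* (3.36 and 4.44), *Slc7a8* (3.97 and 4.22) and *Gatm*, encoding the first enzyme of creatine synthesis (2.24 and 2.60), were also higher in early cells. Lowest were *Slc22a7*, *Mep1b*, *Irx1*, *Ido2*, *Sec14l3*, *C8a*, *Ccl28*, *Hsd17b2*, *Cyp2d9* and *Slco1a1*, with ratios for *Slco1a1*, an organic anion transporter, of -5.12 and -4.13. *Xist* itself was higher in early than in late cells (3.80 and 3.67), and cells with *Xist* and no Y-linked UMI made up 1.80% of young and 2.46% of old late cells. The late genes of the rule include *Slc7a13* and *Slc22a30*, which also differed between the kinds of early cells (log2 ratios of Y-linked over *Xist* cells of 1.93 and 3.66, and of 2.64 and 2.84), so nothing is read from the share of either kind in a class.

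Genes furthest apart between the 2 kinds of early cells included known sex-biased genes of the PT. Beside the Y-linked genes, *Cyp2j13*, *Chst11*, *Ugt8a*, *Ces1g*, *Col6a6* and *Ces1f* were highest in cells with Y-linked UMIs, with log2 ratios for *Cyp2j13*, a cytochrome P450, of 4.40 in the young and 4.75 in the old library. Beside *Xist* and its antisense partner *Tsix*, highest in cells with *Xist* were *Cyp4a14* (-5.56 and -6.14), *Klk1*, *Bhmt*, *Hpd*, *Ugt1a2*, *Pappa*, *Prlr* and *Wfdc2*. *Prlr*, encoding the prolactin receptor, stood at 11.2 and 2.005 CPM in cells with Y-linked UMIs and at 161 and 103 CPM in cells with *Xist*. The androgen-regulated gene *Kap* stood at 16547 and 21148 CPM in the former and 2011 and 665 CPM in the latter. *Kap* was among the 3 genes with the highest CPM, after *Malat1* (68116 against 56587 CPM) and *Gpx3*, encoding plasma glutathione peroxidase (16733 against 18623 CPM), and its variance over its mean across thinned cells was 172 in young and 146 in old members. Old over young, 1 of the 7 sex-biased PT genes with 200 UMIs, *Slco1a1*, was higher and 1, *Prlr*, was lower. Of all 10081 such genes, 4.19% were higher and 2.86% lower. The median of the sex-biased list was 0.13 over all members and -0.64 in cells with *Xist*. Per cell, thinned counts of *Kap* had medians of 11 and 22 and reached 626 and 742 UMIs.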

How the data were processed

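Single cells of pooled kidneys were profiled with the 10x Chromium 3′ v3.1 kit in 1 old and 1 young library. The deposited counts are UMIs per gene and barcode, which the authors made with Cell Ranger 3.1.0 on mm10, without normalization. The values were computed in Python 3.11.15 with NumPy 2.4.6, SciPy 1.17.1 and pandas 2.3.3, and figures with Matplotlib 3.10.9. Members were summed per library and scaled to CPM over 31053 genes, with no scaling by length since UMIs count 3′ ends, and 10081 genes with at least 200 UMIs were ranked. A gene with no UMI was set at 3 counts. Cells were thinned to 5000 UMIs with seed 7. Scrublet in Scanpy 1.11.5 called 332 young and 270 old barcodes doublets, of which 23 and 4 were members, and they were kept. Leukocytes had a *Ptprc* UMI and fewer than 3 of the 5 PT genes, and T cells among them had UMIs of 2 or more CD3 genes and none of *Cd79a*, *Lyz2* and *C1qa*, a definition set after the data were seen. Positions of genes were those of GENCODE M21 (GRCm38), and upstream sequences from RefSeq on GRCm38.p6. The members and gene lists were chosen with earlier results of these data known. Named genes were listed genes, the 10 at each end of the old over young ratio (over all members and within both kinds of cells), of early over late cells and of Y-linked over *Xist* cells, and the 10 most abundant and most variable. Some members of the lists are counted but not reported by name here. The ratio steps were run on simulated Poisson sums per library. Those hold no variation between cells or mice, so the run says nothing on how such variation bears on the ranking. With 1 library per age, p-values were not computed. The alternatives changed the filters, scaling, depth, count minimum and kind of cells.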

Additional observations from a re-analysis of the deposited data

Results flagged for a closer look

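Among listed and named genes with at least 200 UMIs, 5 went past 1.5-fold in opposite directions between old and young members of the 2 kinds of cells, with counting intervals on either side of 0. The share of all 10081 genes that did so is not given here, so nothing is read from the number 5. The difference between the kinds was not tested, since each kind has 1 library per age. *Cyp2e1*, encoding a cytochrome P450, had a log2 ratio of 0.77 in cells with Y-linked UMIs and -0.80 in cells with *Xist*. *Acsm3*, encoding an acyl-CoA synthetase, had 0.80 and -0.99. *Slc5a8*, encoding a monocarboxylate transporter, had 0.82 and -1.08. *Cdkn1a*, encoding the cell cycle inhibitor p21, had -1.16 and 0.91. *Mt2*, encoding a metallothionein, had -0.72 and 0.85.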

How the results depend on the processing

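The ages have 1 library each, so no variation between mice is measured, and intervals cover counting error only. No paired analysis was possible because the labels give no replicate numbers and each age has 1 library. Of 2128 alternative values of 152 gene ratios, 1708 moved by less than their counting interval, 407 moved further and 13, all of genes past 1.5-fold over all members, changed sign. Ratios nearer 0 also changed sign, in 34 values of 17 genes that are not listed here. Of 266 alternative medians of 19 lists, 42 moved, and no median past 1.5-fold changed sign. Medians near 0 did change sign, such as those of the organic anion list (-0.24), the sex-biased list (-0.64) and the injury list (0.11) in cells with *Xist*. Of 88 alternative values of 44 early over late ratios, 27 moved beyond their counting interval and 0 changed sign. The number of genes higher and lower in old members was 698 and 620 with at least 50 UMIs per gene, 162 and 121 with at least 1000 UMIs, and 180 and 93 at 2-fold, and in both kinds of cells it was 132 and 52 at 2-fold. Leaving out cells with a leukocyte marker UMI, chosen after seeing the data, left 638 old members. Among genes past 1.5-fold over all members, the sign changed in cells with Y-linked UMIs for *S100a6* (1.26), *Egf* (-0.045), *Mt2* (-0.72) and *Sprr1a* (0.29), and in cells with *Xist* for *Slc5a1* (-0.20), *S100a6* (1.71), *Sox4* (0.082), *Cdh1* (-0.48), *Slco1a1* (-0.53) and *Sprr1a* (1.24). Among the same genes it changed without cells with a leukocyte marker UMI for *S100a6* (1.13) and *Sprr1a* (0.13), and without each library's highest cell for *S100a6* (1.18), a setting also chosen after seeing the data. The cause of these changes was not tested, except that single cells held most of the *Sprr1a* UMIs.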

Other observations

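Some transporters and interferon-inducible genes had ratios of different size in the 2 kinds of cells. *Slco1a1* stood at 5.34 and 14.95 CPM in young and old cells with Y-linked UMIs and at 3.41 and 2.36 CPM in cells with *Xist*. *Slc22a29*, of the organic anion transporter family, had log2 ratios old over young of -2.41 and -0.52. Among genes chosen after their values were seen, *Ly6e* had 3.19 and 1.55, *Ly6a* 2.55 and 0.98 and *Pigr* 3.30 and 2.997. *Rnase4*, encoding a secreted ribonuclease, had 0.07 in cells with Y-linked UMIs and 1.60 in cells with *Xist*. The differences between the kinds were not tested.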
